A study of Mus musculus with 43 samples.

Results

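Ampd3, Gdpd2, Thbs4 and Apoa1 are 4 of the 55401 genes in the tables of this series, and they were chosen by their large differences between Prmt1-dKO and WT testes in bulk RNA-seq. They were matched by their GENCODE vM21 symbols to the gene identifiers of the 10 RNA libraries, and all 4 matched 1 identifier each. Prmt1 is the main methyltransferase for asymmetric dimethylarginine, and the series asked how its loss in male germ cells changes transcripts and histone arginine marks. By the study's methods, the bulk libraries hold polyA mRNA isolated from total RNA of whole testes, 3 WT and 3 Prmt1-dKO. The mice were at postnatal day 7 (P7) and on a C57BL/6J background. In Prmt1-dKO mice a tamoxifen-inducible Cre under the Ddx4 promoter, which is active in germ cells, removes exons 4 and 5 of Prmt1 lox/lox alleles, and tamoxifen was given on 3 days. The protocol names both genotypes for tamoxifen, while the treatment label of WT reads NULL. The sample labels call the bulk libraries spermatogonia, while the protocol describes RNA of the testis. The 4 Smart-seq2 libraries, 2 WT and 2 Prmt1-dKO, come from spermatogonia of the same age that were sorted by the EGFP reporter of the Ddx4-CreERT2 allele, and their controls carry 1 floxed allele by the study's methods. The 33 CUT&Tag peak lists cover 7 histone marks in testicular cells of WT mice at P7 and at P14, and H4R3me2s also in Prmt1-dKO at P7 (2 lists). The labels do not say whether the replicates of a group are separate mice. The study describes the Smart-seq2 samples as biological duplicates and its experiments, unless stated otherwise, as at least biological triplicates. Which mice gave which library is not stated, so every test here measures the spread between these libraries.

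The 4 genes belong to unrelated families. Ampd3 encodes the AMP deaminase known from red blood cells, which turns AMP into IMP in the purine nucleotide cycle. Gdpd2 encodes a membrane enzyme of the glycerophosphodiester phosphodiesterase family, which splits glycerophosphodiesters of membrane lipid turnover. Thbs4 encodes thrombospondin 4, a secreted glycoprotein of the extracellular matrix best known from tendon and muscle. Apoa1 encodes the main protein of high-density lipoprotein, made mostly by liver and small intestine. In a testis of this age the tubules hold Sertoli cells and spermatogonia, and Leydig, peritubular, endothelial and immune cells lie around them.

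In GRCm38, Ampd3 (ENSMUSG00000005686.17) lies at chr7:110768206-110812405 on the plus strand, Gdpd2 (ENSMUSG00000019359.14) at chrX:100729873-100738895 on the plus strand, Thbs4 (ENSMUSG00000021702.7) at chr13:92751590-92794818 on the minus strand and Apoa1 (ENSMUSG00000032083.8) at chr9:46228580-46230466 on the plus strand. The stretches below show where the peaks described further on fall or fail to fall, and what sequence the first RefSeq promoter of each gene (GRCm38.p6) holds. Each runs from 250 bases before the RefSeq start towards it, without the bases that GENCODE counts as exons of the gene, and is written 5′ to 3′ on the strand of the gene. Capitals mark matches to 6 motifs searched on both strands, so a match on the opposite strand is printed as its reverse complement.
Ampd3, chr7:110768380-110768621 (plus strand): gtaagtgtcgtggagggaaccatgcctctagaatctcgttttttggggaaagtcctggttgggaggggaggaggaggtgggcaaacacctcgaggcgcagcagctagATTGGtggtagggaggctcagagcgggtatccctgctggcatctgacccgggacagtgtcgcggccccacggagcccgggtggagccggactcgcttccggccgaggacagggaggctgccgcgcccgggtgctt
Gdpd2, chrX:100729597-100729846 (plus strand): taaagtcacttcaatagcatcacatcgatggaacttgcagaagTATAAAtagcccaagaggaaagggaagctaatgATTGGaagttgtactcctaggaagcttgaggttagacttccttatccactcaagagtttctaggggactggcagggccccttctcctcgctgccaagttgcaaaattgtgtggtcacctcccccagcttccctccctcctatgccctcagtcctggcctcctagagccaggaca
Thbs4, chr13:92794819-92795068 (minus strand): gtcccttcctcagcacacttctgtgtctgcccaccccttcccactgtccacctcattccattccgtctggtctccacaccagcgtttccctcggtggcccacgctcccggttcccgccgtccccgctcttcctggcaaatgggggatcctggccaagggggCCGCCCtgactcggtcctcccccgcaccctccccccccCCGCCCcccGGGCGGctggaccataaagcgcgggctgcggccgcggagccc
Apoa1, chr9:46228380-46228579 (plus strand): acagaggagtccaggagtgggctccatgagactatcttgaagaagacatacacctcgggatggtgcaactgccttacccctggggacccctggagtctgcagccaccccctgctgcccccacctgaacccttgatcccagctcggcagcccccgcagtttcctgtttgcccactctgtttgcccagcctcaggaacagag

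The motifs searched in the whole 300-base promoters were the TATA box (TATAAA), the CCAAT box (spelled as its name), the GC box (GGGCGG), the AP-1 motif (TGANTCA), the cyclic AMP response element (TGACGTCA) and the palindromic estrogen response element. No matches overlapped in these 4 promoters. In that order, 13.6%, 37.4%, 35.7%, 7.81%, 1.79% and 0.07% of 32851 promoters of that length held a match. The first Ampd3 promoter held 1 CCAAT box on the opposite strand at -135 from the RefSeq start. Gdpd2 held 1 TATAAA at -207 and 1 CCAAT box on the opposite strand at -174. Thbs4 held 3 matches to GGGCGG, at -89, -51 and -42, and the Apoa1 promoter held no match. The Thbs4 promoter had 24 CpG, and 80.0% of all promoters had fewer. The first Ampd3 promoter had 22 CpG, more than 76.9% of promoters, while Apoa1 had 4 and the first Gdpd2 promoter had 2, against a median of 7 over all promoters. The second Gdpd2 promoter had 9, more than 54.2% of promoters. Of the other 2 Ampd3 promoters, further downstream, 1 held an AP-1 match at 13 and 1 a CCAAT box at -121, and each had 3 CpG. A match to a motif is a description of the letters and not of a bound site.

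In bulk RNA-seq the libraries held between 12396317 and 16598233 counts. Prmt1 was at 631 ± 24.9 TPM (length-scaled transcript abundance) in WT and 415 ± 16 TPM in Prmt1-dKO testes (SD, n = 3 each), and all 3 Prmt1-dKO libraries lay below all WT libraries. Since only 2 exons are removed, reads summed over the gene test the labels in part. Ddx4, the germ cell helicase gene whose promoter drives the Cre, was at 88.5 ± 8.66 TPM in WT and 51.2 ± 14.1 TPM in Prmt1-dKO testes. Of all genes tested 5.32% were called higher and 1.78% lower in Prmt1-dKO. Of the marker genes of testicular cells, 5 of 9 tested Leydig cell genes and 4 of 7 peritubular myoid cell genes were called lower in Prmt1-dKO, and 0 of 14 germ cell genes were called. Of Sertoli cell genes 1 of 14 was called lower, of macrophage genes 1 of 10, of excurrent duct genes 1 of 7 and of endothelial genes 0 of 7. All 14 Sertoli cell genes had log2 fold changes below 0 (median -0.38). Their sum was 7110 to 7680 TPM in WT and 4880 to 5430 TPM in Prmt1-dKO testes. Of mesothelial genes 2 of 9 and of stratified epithelium genes 2 of 3 tested were called higher, and 9 of the latter were too low to test. Prmt1-dKO replicate 2 had the highest sum of both lists, at 111 and 18.9 TPM. Here a called gene differs at least 2-fold with an FDR (Benjamini-Hochberg) under 0.05 in edgeR's quasi-likelihood test. Fewer cells of a type and less RNA per cell cannot be told apart in bulk samples. The 4 Smart-seq2 libraries held between 15610354 and 18547078 counts. There all 14 germ cell markers were detected in both genotypes, and Prmt1 was at 294 ± 78.3 TPM in WT and 165 ± 19.7 TPM in Prmt1-dKO spermatogonia (SD, n = 2 each).

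Ampd3 was higher in all 3 Prmt1-dKO testes than in any WT testis. Its TPM was 4.69, 3.91 and 4.30 in the WT testes and 47.56, 28.18 and 42.65 in the Prmt1-dKO testes, replicates 1 to 3. The lowest Prmt1-dKO library stood 6.01-fold above the highest WT library. In counts these were 132, 141 and 148 against 1435, 978 and 1672. The edgeR log2 fold change was 3.43 (SE 0.15), a fold of 10.8, given without a test because this contrast chose the gene. Leaving out any 1 library moved it between 3.35 and 3.56. The average length of the Ampd3 transcripts, weighted by abundance in the tables, was 3201 to 3754 bases in WT and 3573 to 3764 bases in Prmt1-dKO testes. The 3 transcripts with 15 exons are 4094, 3489 and 3337 bases long, and the other 5 are between 345 and 1769 bases long.

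Gdpd2 had the least spread among Prmt1-dKO testes of the 4 genes. Its TPM was 6.34, 4.45 and 4.69 in WT and 34.05, 27.77 and 34.19 in Prmt1-dKO testes. The counts behind them were 69, 89 and 79 in WT against 429, 431 and 554. The groups did not overlap, and the lowest Prmt1-dKO library was 4.38-fold above the highest WT library. The log2 fold change was 2.74 (SE 0.14), a fold of 6.69, and lay between 2.67 and 2.79 when 1 library was left out. Gm14866, an antisense transcript, shares 799 bases, 17.3% of the exonic bases of Gdpd2, and reads of the 2 genes cannot be told apart unless counting used the strand, which is not given in the sources used here. Gm14866 itself had 1 count over the WT and 21 counts over the Prmt1-dKO testes.

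Thbs4 was the least expressed of the 3 genes with tight replicates. Its TPM was 1.53, 1.71 and 1.78 in WT and 20.08, 22.70 and 14.41 in Prmt1-dKO testes. The counts were 43, 52 and 56 in WT and 537, 677 and 474 in Prmt1-dKO testes. In TPM, Prmt1-dKO replicate 2 was the lowest of its group for Ampd3 and Gdpd2 and the highest for Thbs4, while in counts Gdpd2 was lowest in replicate 1. The lowest Prmt1-dKO library was 8.10-fold above the highest WT library, and the log2 fold change was 3.68 (SE 0.24), a fold of 12.8. It lay between 3.43 and 3.86 with 1 library left out. No other gene shares exonic bases with Thbs4.

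Apoa1 was high in only 2 of the 3 Prmt1-dKO testes. Its TPM was 0, 1.0 and 0.48 in WT and 46.62, 1.14 and 120.98 in Prmt1-dKO testes, from 0, 8 and 4 counts against 318, 9 and 1052 counts. Replicate 2 of Prmt1-dKO thus stood 1.14-fold above the highest WT library, and replicate 3 stood 106-fold above replicate 2. The fitted log2 fold change was 6.86 with an SE of 1.47. It was 5.52 without Prmt1-dKO replicate 3 and 7.78 without WT replicate 2, shifts of the fold of over 1.5 times, and 7.43 without Prmt1-dKO replicate 2. The SD of the Prmt1-dKO libraries on the log2 CPM scale was 3.29, against 0.25 for Ampd3, 0.09 for Gdpd2 and 0.42 for Thbs4.

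**Figure D1:**
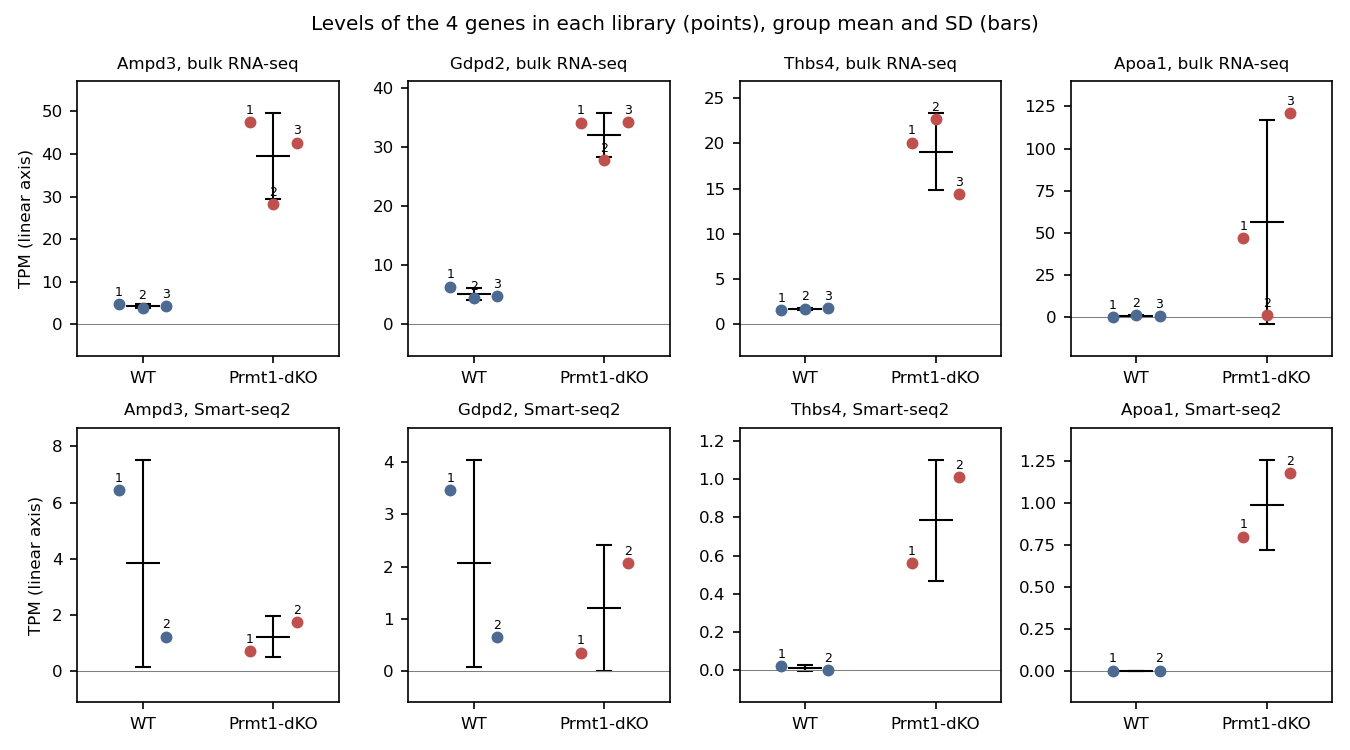
TPM of the 4 genes in each library (points, numbered by replicate) with the group mean and SD (bars), for bulk RNA-seq above (n = 3 per genotype) and Smart-seq2 below (n = 2 per genotype), each panel with its own linear axis. In bulk RNA-seq all Prmt1-dKO points of Ampd3, Gdpd2 and Thbs4 lie well above WT, while Apoa1 replicate 2 of Prmt1-dKO lies at 1.14 TPM, next to WT.

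Over all genes tested in bulk RNA-seq (16554), 881 were called higher in Prmt1-dKO, which is 5.32%, and 294 were called lower, which is 1.78%. In 20.9% of genes every Prmt1-dKO value exceeded every WT value. All 4 genes are among both, as their choice implies, but Apoa1 was no longer called when any 1 WT library was left out, and it passed the filter on low counts only through the Prmt1-dKO libraries. By the size of the log2 fold change, Apoa1 ranked 93, Thbs4 211, Ampd3 232 and Gdpd2 300 among these genes. In level per length, the order in WT testes was Gdpd2 (5.16 ± 1.03 TPM), Ampd3 (4.30 ± 0.39), Thbs4 (1.67 ± 0.129) and Apoa1 (0.493 ± 0.50). Gdpd2 and Ampd3, neighbours in that order, overlapped between libraries. In Prmt1-dKO testes the order was Apoa1 (56.2 ± 60.5 TPM), Ampd3 (39.5 ± 10.1), Gdpd2 (32.0 ± 3.67) and Thbs4 (19.1 ± 4.24), where all Thbs4 libraries lay below all Ampd3 and Gdpd2 libraries, Ampd3 and Gdpd2 overlapped, and Apoa1 spanned the other 3. Between 73.8% and 89.2% of the 28047 genes with any signal in Prmt1-dKO testes were lower than these 4, against 32.2% to 54.0% of 25527 genes in WT testes.

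The Smart-seq2 libraries of sorted spermatogonia took no part in the choice of the genes, and they did not show 1 common direction. For Ampd3 the WT spermatogonia gave 150 and 29 counts, and the Prmt1-dKO spermatogonia 5 and 18. Both Prmt1-dKO libraries were thus below both WT libraries, as for 20.3% of the 16443 genes tested. This is the opposite order to bulk RNA-seq. Of 14171 genes fitted in both assays, 10.3% lay apart in opposite directions in them. The Ampd3 log2 fold change was -2.61 (edgeR's quasi-likelihood test, SE 1.44 and FDR = 0.383), and DESeq2 gave an adjusted p of 0.286. In TPM, WT was at 6.45 and 1.22 and Prmt1-dKO at 0.69 and 1.73, so that on this scale the groups overlapped. The weighted length of the Ampd3 transcripts was 1717 and 1769 bases in the WT and 696 and 987 bases in the Prmt1-dKO libraries. The length of 1769 bases is that of a retained-intron transcript, and none of the 4 values reached the 3337 bases of the shortest transcript with 15 exons. Single libraries moved the call. Without WT replicate 2 the log2 fold change was -3.33 with an FDR of 0.00089, and without WT replicate 1 it was -0.98 with an FDR of 0.555.

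For Gdpd2 the WT counts were 123 and 12 against 13 and 25 in Prmt1-dKO spermatogonia, and the groups overlapped. Its log2 fold change was -1.48 (SE 1.45, FDR = 0.652 from edgeR), and the adjusted p of DESeq2 was 0.648. Without WT replicate 1 the value turned to 1.0 (FDR = 0.576 from edgeR), and without WT replicate 2 it was -2.33 with an FDR of 0.0179. The weighted length was 2495 bases in WT replicate 1, that of a full coding transcript, and 1421 bases in WT replicate 2, that of a retained-intron transcript at the 3′ end of the gene. It was 2635 and 1117 bases in the Prmt1-dKO libraries. WT replicate 1 was the high library for both Ampd3 and Gdpd2.

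For Thbs4 the WT counts were 1 and 0 against 16 and 40 in Prmt1-dKO spermatogonia, so the genotypes stood in the same order as in bulk RNA-seq. In Smart-seq2 alone, 36.3% of genes tested had both Prmt1-dKO libraries above both WT libraries. The ratio of summed counts per library total was 62.5 (95% exact binomial interval 10.8 to 2510, for counting error only). The edgeR log2 fold change was 5.80 (SE 1.54, unadjusted p = 0.0153, FDR = 0.0995), so Thbs4 was not called, and DESeq2 gave an adjusted p of 0.115. Thbs4 passed the filter on low counts only through the Prmt1-dKO libraries, where it is high, so these p-values are not independent of the difference. Without the filter the FDR of edgeR was 0.238. Without WT replicate 1 the FDR was 0.00508, and without WT replicate 2 it was 0.0212, while it was 1.0 without either Prmt1-dKO library. In TPM, Thbs4 reached 0.56 and 1.01 in Prmt1-dKO spermatogonia against 20.08, 22.70 and 14.41 in Prmt1-dKO testes.

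Apoa1 had no count in either WT library, while the Prmt1-dKO libraries had 10 and 13. The fold was at least 8.55 when the WT side is set to a floor of 3 counts over both libraries. The FDR of edgeR was 0.0774, or 0.249 without the filter on low counts, which Apoa1 likewise passed only through the Prmt1-dKO libraries. DESeq2 gave no adjusted p. Apoa4 and Apoc3, which lie next to Apoa1, had 0 counts in all 4 Smart-seq2 libraries. Apoa1 was at 0.80 and 1.18 TPM in these Prmt1-dKO libraries, and 31.4% of the 22563 genes with any signal there were lower.

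**Figure D2:**
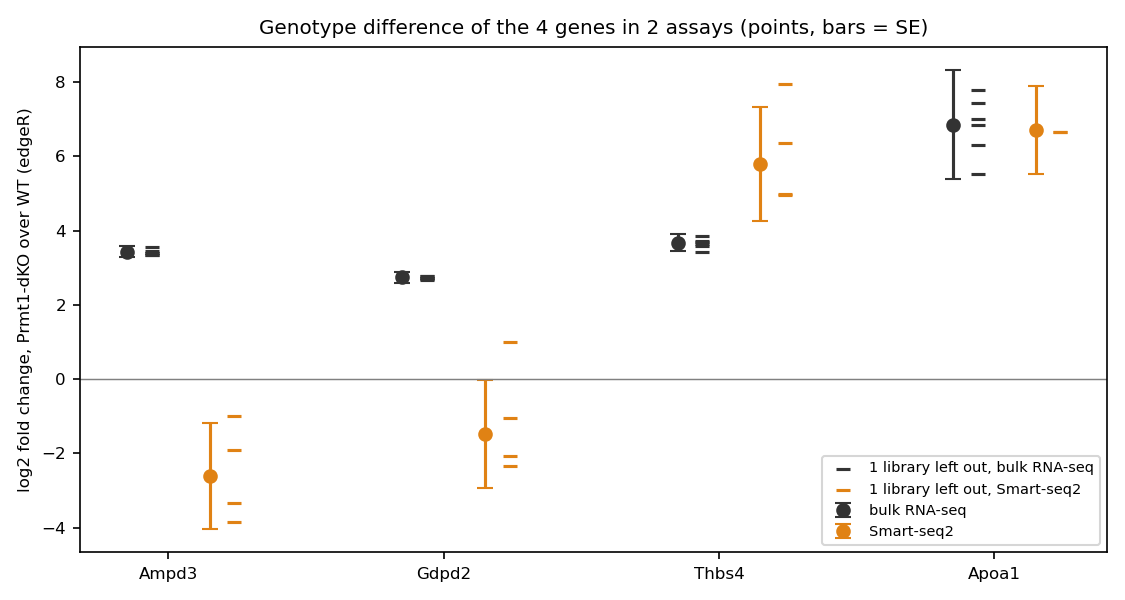
log2 fold change of Prmt1-dKO over WT from edgeR (points, bars are SE) for the 4 genes in bulk RNA-seq (black) and Smart-seq2 (orange), with short dashes for the value when 1 library is left out. Ampd3 stands at 3.43 among the bulk libraries and at -2.61 in Smart-seq2, Gdpd2 in Smart-seq2 has dashes on both sides of 0, and the Smart-seq2 value of Apoa1 depends on the prior count since WT had no count.

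None of the 4 genes was called in Smart-seq2, where edgeR called 0% of 16443 genes higher and 0% lower. At an unadjusted p under 0.05 and the same fold, 2267 genes were higher and 678 lower. DESeq2 called 7.33% of 16901 genes higher and 3.93% lower, and none of the 4 was among them. The biological coefficient of variation was 0.767 for Smart-seq2 but 0.155 for the bulk libraries. The WT libraries held a count for 17106 and 15587 genes and the Prmt1-dKO libraries for 21404 and 20194. Markers of other cells also differed between the Smart-seq2 groups. All 10 macrophage markers were at 0 in both WT libraries, and their summed level was 69.2 and 62.2 TPM in the Prmt1-dKO libraries, in which only Adgre1 was at 0. The 14 Sertoli cell markers summed to 311 and 298 TPM in WT and to 425 and 600 TPM in Prmt1-dKO. Erythroid, hepatocyte, mesothelial, excurrent duct, stratified epithelium and peritubular myoid cell lists were also higher in both Prmt1-dKO libraries than in both WT libraries. Mesothelial markers were at 3.53 and 5.5 TPM in WT and 12.5 and 11.3 TPM in Prmt1-dKO. Excurrent duct markers were at 0.05 and 2.69 against 10.2 and 6.02 TPM. The granulosa cell list described below was higher too, and the intestinal epithelium list was lower. Germ cell markers were lower, at 3490 and 3510 TPM in WT and 2910 and 2830 TPM in Prmt1-dKO. Leydig cell markers were lower, at 101 and 78.5 against 58.2 and 71.8 TPM. Endothelial cell markers overlapped, at 5.20 and 1.56 against 3.79 and 5.02 TPM, as did tendon and cartilage markers. The part of these cells and of the number of genes detected in the values of Thbs4 and Apoa1 was not tested.

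The bulk patterns of the 4 genes were compared over the 6 libraries by the root mean square difference of log2 CPM, each gene centred on its mean. Ampd3, Gdpd2 and Thbs4 lay 0.39 to 0.51 from each other, and Apoa1 lay 2.06 to 2.34 from them. Among 12958 other genes with a mean of at least 50 counts, Adm, which encodes the secreted vasodilator peptide adrenomedullin, came first for Ampd3 (0.207) and for Gdpd2 (0.303), and second for Thbs4 (0.26). Adm counts were 25, 26 and 29 in WT against 241, 231 and 253 in Prmt1-dKO testes, with no count in any Smart-seq2 library. It lies 138 kb from Ampd3 on the same strand (chr7:110627661-110629820), with 2 gene models between them. Foxl2, a forkhead transcription factor gene known from granulosa cells of the ovary, was closest to Thbs4 (0.166) and second for Ampd3 (0.523). Its counts were 9, 11 and 10 in WT and 124, 207 and 117 in Prmt1-dKO testes, with replicate 2 the highest as for Thbs4. Foxl2, too, had no count in Smart-seq2. Ptpn5, a tyrosine phosphatase gene, followed for Thbs4 (0.478), with 11, 6 and 16 counts in WT and 76, 138 and 63 in Prmt1-dKO. Lgr6, an R-spondin receptor gene, was also among the closest to Gdpd2 (0.333). Next for Ampd3 (0.598) was ENSMUSG00000118506, which GENCODE vM21 does not name.

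The genes most like Apoa1 were Apoa4 (0.872), Clca4b (0.893) and Sprr2a2 (1.114). Apoa4 encodes another apolipoprotein made mostly by small intestine. Its TPM was 0.07, 1.51 and 0.18 in WT and 78.98, 0.51 and 225.74 in Prmt1-dKO testes. It was high in Prmt1-dKO replicates 1 and 3, as Apoa1 was, and within its own WT range in replicate 2, where Apoa1 lay just above its WT range. Clca4b had 65, 0 and 344 counts in Prmt1-dKO and 4 counts in all over WT. Sprr2a2, a small proline-rich protein gene, had 140, 34 and 579 counts in Prmt1-dKO and 2 counts over WT. Apoc3, another apolipoprotein gene, was at 0 in all WT libraries and at 4.05, 0 and 29.60 TPM in Prmt1-dKO.

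Since these genes are known from the absorptive cells of the small intestine, a list of 22 intestinal epithelium genes was written down after Apoa4 and Apoa1 had been seen side by side, and it gets no test. In 14 of the 22, Prmt1-dKO replicates 1 and 3 lay above every other bulk library in TPM. Only 10 of the 22 had enough counts to be tested, and in CPM 6 of these 10 had that order, as did 13.2% of all genes tested. Several of the others rest on few counts, such as Reg3g with 1 and 1 counts in those 2 libraries. Rbp2, an intestinal retinol-binding protein gene, was at 0.51, 0.24 and 0 TPM in WT and at 10.37, 0.71 and 36.7 TPM in Prmt1-dKO. Fabp2, an intestinal fatty acid-binding protein gene, was at 0 in WT and at 3.79, 0.28 and 11.21 TPM in Prmt1-dKO. Alpi, the intestinal alkaline phosphatase gene, was at 0.35, 0 and 0 TPM in WT and at 1.80, 0 and 7.59 TPM in Prmt1-dKO. Apob, which encodes the core protein of chylomicrons, was at 0.02 to 0.06 TPM in WT and at 1.44, 0.01 and 6.00 TPM in Prmt1-dKO. Fabp1 was at 0 in WT and at 1.94, 0 and 7.55 TPM in Prmt1-dKO. These 5 were highest in replicate 3, lower in replicate 1 and at or near the WT level in replicate 2, which is the order of Apoa1. Not every gene of the list followed it. Vil1, which encodes villin, was highest in Prmt1-dKO replicate 2, at 0.92, 1.47 and 1.18 TPM. Lct was at 0.37, 0.78 and 1.27 TPM in Prmt1-dKO, and in Muc2 and Cdx1 replicate 1 was within the WT range. The summed level of the list was 78.2 to 82.7 TPM in WT and 146, 114 and 253 TPM in Prmt1-dKO testes, of which Epcam gave 45.88 to 55.44 TPM in every bulk library. Sis and Reg3b were at 0 in all 6, and Cdx2 was at most at 0.25 TPM. The 12 hepatocyte markers, which also include Apob and Fabp1, summed to 31.5 to 37.2 TPM in WT and to 36.9, 48.8 and 45.3 TPM in Prmt1-dKO testes, mostly from Trf and Ahsg, and 0 of 3 tested were called. Among them Ttr, Fga and Serpina1c were at 0 in all 6 libraries and Alb did not pass 0.12 TPM. The part of intestinal or other cells in the Apoa1 values was not tested.

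**Figure D3:**
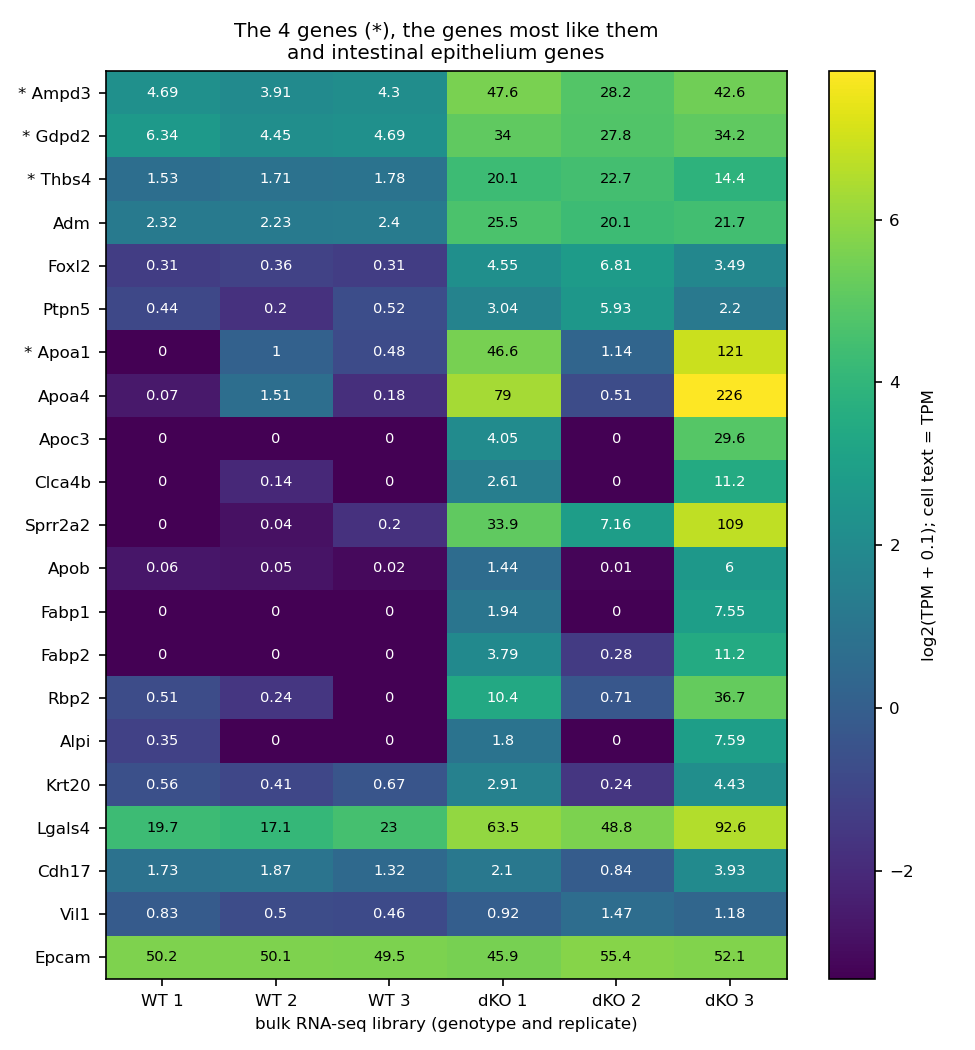
TPM (cell text) of the 4 genes (starred), of genes most like them and of some intestinal epithelium genes in the 6 bulk RNA-seq libraries, coloured on a log2 scale of TPM. Apoa1, Apoa4, Apoc3, Clca4b, Apob, Fabp1, Fabp2, Rbp2 and Alpi are high in Prmt1-dKO replicates 1 and 3 and near WT in replicate 2, whereas Ampd3, Gdpd2, Thbs4, Adm and Foxl2 are high in all 3.

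Cell type lists that touch the known sites of the other 3 genes gave these values. The erythroid markers summed to 3140, 4710 and 3030 TPM in WT and to 3310, 8340 and 2710 TPM in Prmt1-dKO testes, and 0 of 8 tested were called. Prmt1-dKO replicate 2, with the highest erythroid sum, had the lowest Ampd3 level of its group. Of 9 tested tendon and cartilage markers 0 were called, and their sum was 222 to 243 TPM in WT and 165 to 187 TPM in Prmt1-dKO testes. After Foxl2 had come up beside Thbs4, 15 granulosa cell genes were written down. Of the 14 tested, 1 was called higher, Foxl2 itself, and 2 were called lower, Hsd17b1 and Inhba, beside 5.32% and 1.78% of all genes. The Foxl2 call follows from its choice by these same libraries. With 9, 11 and 10 counts in WT, Foxl2 also passed the filter on low counts only with the Prmt1-dKO libraries. The part of other cells in the Ampd3, Gdpd2 and Thbs4 values was not tested.

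The other genes of the families and pathways of the 4 genes were called about as often as all genes in bulk RNA-seq. Apart from the 4 genes themselves, 77 genes of 4 lists were tested, of which 5 were called higher and 1 lower, beside 5.32% and 1.78% of all genes. Their median log2 fold change was -0.07, against 0.02 over all genes tested. In the purine nucleotide cycle and AMP list, 0 of 26 other genes were called in either direction, with a median of 0.05. Ampd2, the isoform of most tissues, was at 66.7 TPM in WT and 63.2 TPM in Prmt1-dKO (log2 fold change -0.03, FDR = 0.837), while Ampd1, the muscle isoform, stayed at or below 0.33 TPM and was too low to test. In WT testes Ampd3 was thus well below Ampd2 in TPM, and in Prmt1-dKO the range of Ampd3 was 28.18 to 47.56 TPM against 47.11 to 78.88 TPM for Ampd2.

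In the glycerophosphodiester list, 1 of 19 other genes was called higher and 0 lower (median -0.13). Gdpd3, a relative of Gdpd2, was at 7.70, 6.28 and 5.41 TPM in WT and at 9.04, 9.80 and 18.78 TPM in Prmt1-dKO testes. It rose by a log2 fold change of 1.13 (FDR = 0.0418 from edgeR). Of the other relatives, Gde1 (-0.05, FDR = 0.834), Gdpd1 (0.28, FDR = 0.138) and Gdpd5 (0.27, FDR = 0.386) were not called. In the list of thrombospondins and their receptors, 1 of 19 other genes was called higher and 0 lower (median -0.22). Itga3, an integrin subunit gene, rose from 12.60, 12.84 and 11.04 TPM to 31.72, 26.23 and 22.05 TPM, a log2 fold change of 1.24 (FDR = 0.00134). Among the thrombospondins, Thbs1 (0.34, FDR = 0.102), Thbs2 (-0.07, FDR = 0.726), Thbs3 (-0.14, FDR = 0.381) and Comp (-0.17, FDR = 0.792) were not called.

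In the apolipoprotein and HDL list, 3 of 13 other genes were called higher and 1 lower (median 0.15). Apoa4 was called although its groups overlapped (log2 fold change 7.54, FDR = 0.0158). With 1, 24 and 3 counts in WT against 1114, 8 and 3950, it passed the filter on low counts only with the Prmt1-dKO libraries. Its call is therefore not independent of the difference. Apoc2, which encodes the activator of lipoprotein lipase, was at 0.68, 1.26 and 1.22 TPM in WT and at 19.95, 5.32 and 59.14 TPM in Prmt1-dKO, again with replicate 3 the highest and replicate 2 the lowest (log2 fold change 5.09, FDR = 0.00774). With 2, 4 and 4 counts in WT against 64, 17 and 255, Apoc2 passed the filter on low counts only through the Prmt1-dKO libraries, so its call is not independent of the difference. Apoe, made by many cells including macrophages, was at 244, 226 and 339 TPM in WT and at 461, 816 and 403 TPM in Prmt1-dKO (1.31, FDR = 0.0193), with replicate 2 the highest, unlike Apoa1. Lipg, the endothelial lipase gene, fell by 1.98 on the log2 scale (FDR = 0.00151). Apoa2, Apoa5 and Apoc3 were too low to test. In Smart-seq2 no gene of the 4 lists was called by edgeR, where 68 were tested besides the 4 genes.

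**Figure D4:**
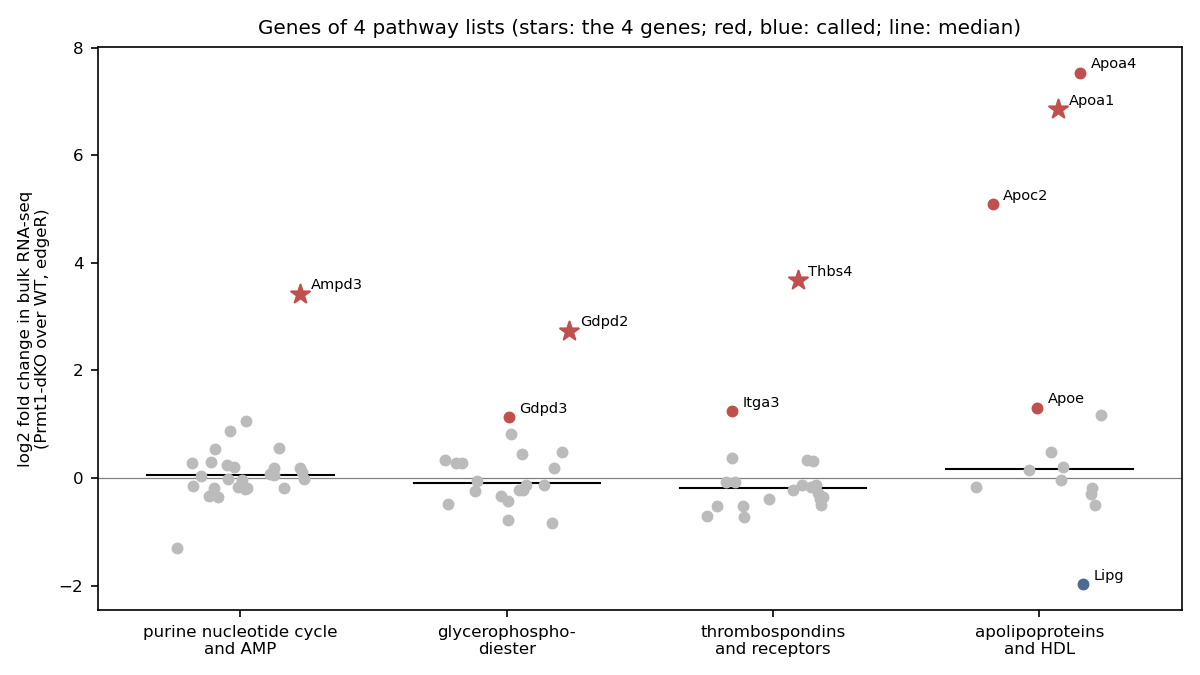
log2 fold change in bulk RNA-seq of each tested gene in the 4 pathway lists (points), with the 4 genes as stars, called genes in red (higher) or blue (lower) and the list median as a line. Most grey points lie near 0, and the 4 stars stand at 2.74 to 6.86.

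Most of the tested genes beside the 4 on the chromosome were not called. Within 50 kb of Ampd3, Rnf141 (log2 fold change -0.15, FDR = 0.566) and Lyve1 (0.29, FDR = 0.355) were not called, and Rnf141 on the opposite strand shares 195 exonic bases with Ampd3. Near Gdpd2, Kif4, a chromosome segregation kinesin gene on the same strand that ends 2659 bp away, was at -0.81 (FDR = 0.00528) and Dlg3 at 0.50 (FDR = 0.0211), both under the fold of 2. Gm14866, the antisense transcript described above, had 11, 5 and 5 counts in the Prmt1-dKO testes, too few for edgeR to test (adjusted p = 0.0353 from DESeq2). Near Thbs4, Serinc5 (-0.29, FDR = 0.378) and Mtx3 (0.29, FDR = 0.183) were not called. Near Apoa1, Apoa4, 10230 bp away, was called, with the limit of the filter given above. Apoc3 between them had 0 counts in WT and 102 counts in Prmt1-dKO (9, 0 and 93 by replicate), was not tested by edgeR and had an adjusted p of 0.178 from DESeq2. Gm10680, an antisense model beside Apoa4, had 4 counts over WT and 40 over Prmt1-dKO, all 40 in replicate 3. Sik3 (0.07, FDR = 0.757) and Zpr1 (0.22, FDR = 0.27), further out on both sides of this cluster, were not called.

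CUT&Tag cuts chromatin beside an antibody against a histone mark, and a promoter peak here is a summit within 3000 bp of any GENCODE transcript start. H3K4me3 marks active or poised promoters, H3K27ac active promoters and enhancers, and the other 5 marks are methylated arginines of histones H3 and H4. The 4 genes had such a summit in 11 (Ampd3), 7 (Gdpd2), 10 (Thbs4) and 3 (Apoa1) of the 31 WT lists, below the median of 13 lists over 21951 protein-coding genes. By the cell type labels the P7 lists are of spermatogonia and the P14 lists of spermatocytes, although the P14 titles read spermatogonia, so age and cell type cannot be told apart. The numbers of reads behind the lists are unknown, so a missing peak does not show that a mark is absent.

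Ampd3 had H3K4me3 summits in 1 of 2 lists at P7 (508 bp downstream of its 5′ end) and in 2 of 2 lists at P14 (634 and 427 bp), just downstream of the stretch printed above. In these lists 61.8% to 62.7% of genes at P7 and 64.4% to 65.7% at P14 had an H3K4me3 promoter peak. H3R2me2a was found there in 2 of 2 lists at P14 (568 and 537 bp) and in 0 of 2 at P7. H4R3me2a was found in 2 of 3 lists at P7, with fold enrichments over the local background of 2.60 and 2.45, and in 0 of 3 lists at P14. Only 8.02% and 4.04% of the peaks of those P7 lists had a lower fold. H3K27ac was present in 2 of 2 lists at P14 at different places, at 1280 and -2029 bp, and in 0 of 2 at P7. H3R8me2a was found in 1 of 2 and H4R3me2s in 1 of 3 lists at P14, beside 45.0% to 45.4% and 31.6% to 41.9% of all genes.

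Gdpd2 had no promoter peak of any mark in the 15 WT lists at P7 and 7 in the 16 lists at P14. H3R2me2a was present in 2 of 2 P14 lists, with summits 720 and 426 bp downstream of the 5′ end and fold enrichments of 3.76 and 3.54, above 88.6% and 85.7% of the peaks of their lists. H4R3me2a was present in 2 of 3, and H3K27ac, H3R8me2a and H4R3me1 in 1 of 2 each. H3K4me3 was not found in any of 4 lists. The share of genes with a promoter peak was itself lower at P7 than at P14 for H3R2me2a (24.1% to 24.3% against 58.3% to 61.5%) and for H4R3me2a (19% to 20.3% against 44.9% to 51.1%).

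Thbs4 had only arginine marks. H3R2me2a was present in 2 of 2 lists at P7, with summits at -1253, -1532 and -2515 bp from the start, and in 2 of 2 at P14, where summits lay 208 and 265 bp downstream of it, at -2864 bp in replicate 2 and near the start of a short retained-intron transcript inside the gene. H4R3me2a was present in 1 of 3 lists at P7 and in 3 of 3 at P14, but the P14 lists did not share 1 place. Replicate 1 had a summit at 114 bp, replicates 1 and 2 had summits near the retained-intron transcript, 20468 and 20643 bp from the 5′ start, and replicate 3 had its summit at -2970 bp. The mark H4R3me1 was present in 1 of 2 at each age. No list of H3K4me3 or H3K27ac had a summit there. Apoa1 showed the reverse, with no arginine mark. Its H3K4me3 summits, in 1 of 2 lists at P7 and 1 of 2 at P14, lay 1580 and 1692 bp downstream of the 5′ end, as did H3K27ac in 1 of 2 lists at P14 (1361 bp), towards the 3′ end of this gene of 1887 bp. All 3 of these Apoa1 peaks are from replicate 2 of their mark. Over all genes, 37.9% to 40.9% had an H3K27ac promoter peak in a list at P7 and 55.3% to 56.2% at P14. For H4R3me1 the shares were 22.3% to 25.3% and 40.9% to 42.7%.

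**Figure D5:**
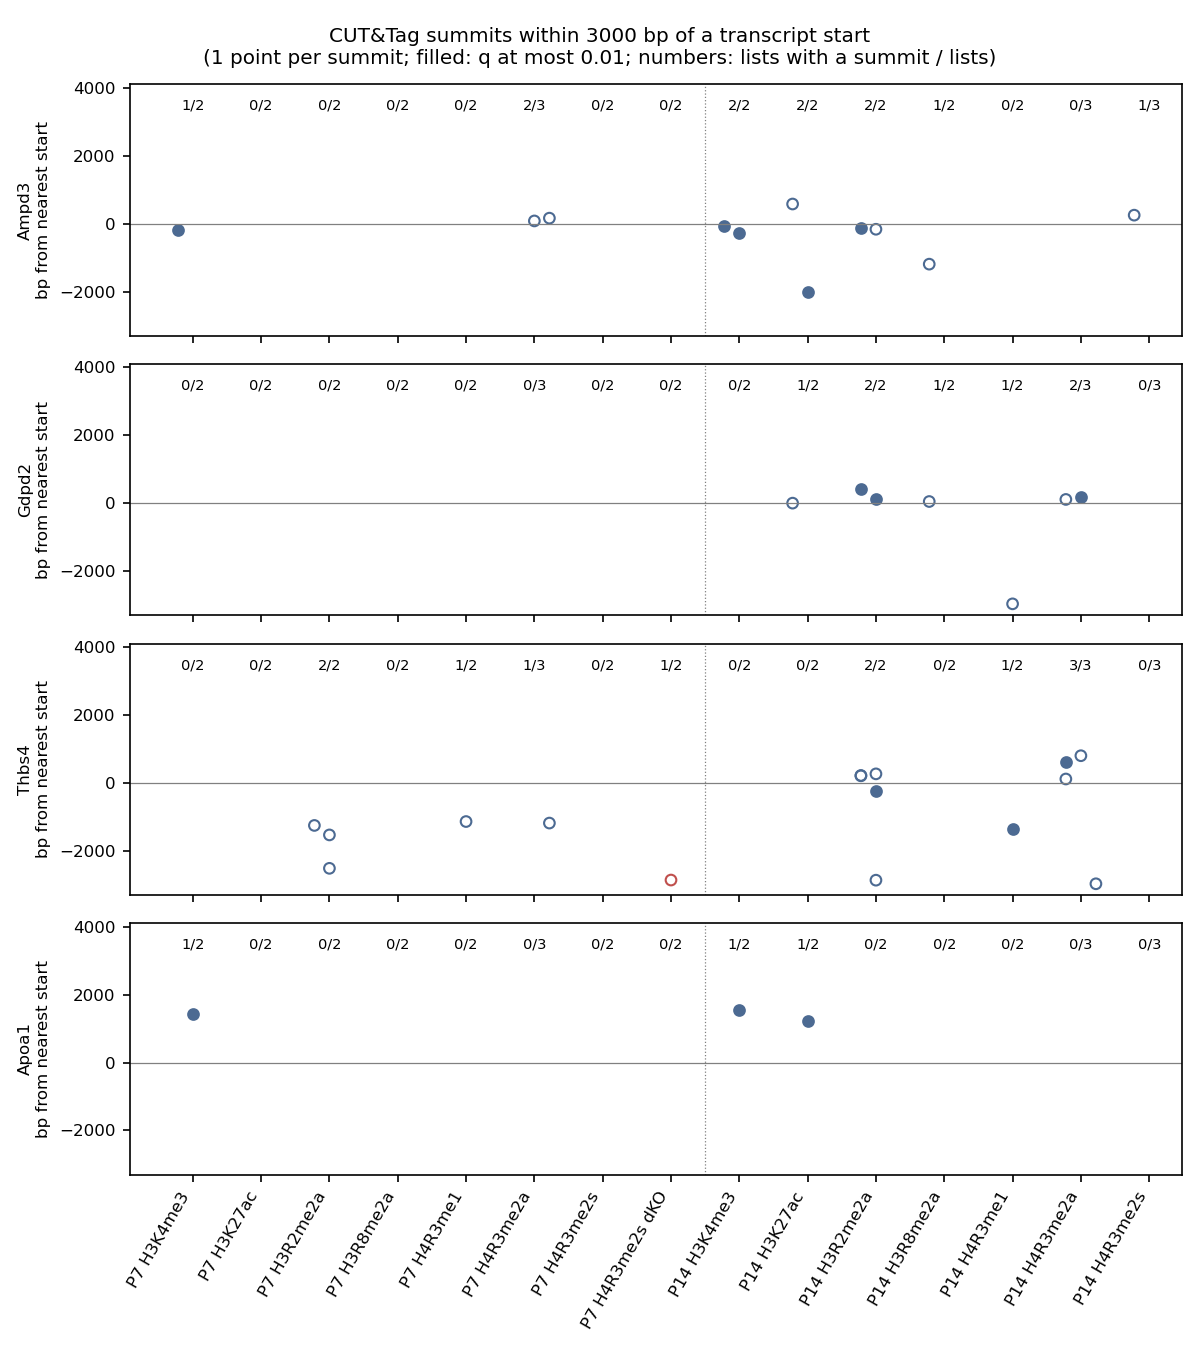
Distance of each CUT&Tag summit from the nearest transcript start (bp, negative is upstream) for the 4 genes, by age and mark, filled where q is at most 0.01, with the number of lists that hold a summit over the number of lists above each column (WT in blue, Prmt1-dKO in red). Gdpd2 has points only at P14, Thbs4 only for arginine marks and Apoa1 only for H3K4me3 and H3K27ac, downstream of its starts.

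The only mark measured in both genotypes was H4R3me2s, symmetric dimethylation of arginine 3 of histone H4, at P7. None of the 4 genes had a promoter summit of it in the 2 WT lists. In Prmt1-dKO, 1 of 2 lists had a summit at -2860 bp from the Thbs4 start, with a fold enrichment of 3.14 and a −log10 q of 0.0142, and the other 3 genes had none. Of all protein-coding genes, 51.0% had no H4R3me2s promoter peak in either WT list and 59.3% had none in either Prmt1-dKO list. With 2 lists a genotype, no test was made.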

How the data were processed

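RNA of 10 libraries and CUT&Tag of 33 samples were processed by the authors. Reads were trimmed with fastp (0.23.2 in the submitters' processing notes), aligned to mm10 with STAR and counted with RSEM on GENCODE vM21. The deposited gene tables hold expected counts, TPM and transcript lengths. The deposited peak lists were called by the authors with MACS2 2.1.0 for each sample and give fold enrichment (a ratio), −log10 p and −log10 q. H3K4me3 peaks were called on q and those of the other marks on p, so some peaks have a weak q.

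Here expected counts were rounded and fitted per assay with edgeR 4.0.16 (filterByExpr with a minimum count of 10 and total of 15, TMM, quasi-likelihood test, Benjamini-Hochberg adjustment over all genes tested), 3 against 3 and 2 against 2 libraries. DESeq2 1.42.0 was an alternative. Levels between genes are given in TPM. The prior count for log2 CPM was 2. The scripts were tested on simulated data. Neighbours are genes within 50 kb with at least 10 counts in a library. The genes named as alike are the 3 with the smallest distance per gene. Of these, 1 is not reported here. Genes named from the lists are close relatives and those called. The 4 genes, the lists and the tests were chosen with earlier results of these data known. Intervals and floors (3 counts) cover counting error only. Settings tried were the normalization, the filter, the tool, 1 fit of all 10 libraries, a replicate block, leaving out each library, the promoter window and the peak threshold.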

Additional observations from a re-analysis of the deposited data

Results flagged for a closer look

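In 3 of 29 named genes fitted in both assays, the libraries of the genotypes lay apart in opposite directions in bulk RNA-seq and Smart-seq2, and the difference between the assays was not tested. Over all 14171 genes fitted in both assays, 10.3% showed this, so the share among the named genes is near that of all genes. Ampd3 had a log2 fold change of 3.43 in bulk RNA-seq and -2.61 in Smart-seq2. Gdpd1 stood at 0.28 in bulk RNA-seq and at -0.54 in Smart-seq2, where WT spermatogonia gave 2121 and 2579 counts against 1467 and 1118. Lipg was lower in bulk RNA-seq (-1.98), while in Smart-seq2 both WT libraries were at 0 counts against 15 and 44, at least 21.9-fold higher in Prmt1-dKO over a floor of 3 counts over the group.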

How the results depend on the processing

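Besides leaving out libraries, 139 values were computed under other settings. Of these, 109 stayed within 1.5 times for counts, within the replicate SD for values without a test, or on the same side of the threshold for tests, and 0 reversed. The cause of the shifts below was not tested. In bulk RNA-seq, 881 genes were called higher, 1777 without a filter, 1379 with DESeq2 and 27 in 1 fit of all 10 libraries, and 294 were called lower against 25 in that fit. The median log2 fold change of all Smart-seq2 genes tested was 0.154, and -0.0134 with total counts in place of TMM. In Smart-seq2, where edgeR called 0 and 0, DESeq2 called 1238 higher and 664 lower, and the fit of all 10 libraries 3516 and 878. In that fit Ampd3 in Smart-seq2 stood at -2.54 (FDR 0.0377) and Thbs4 at 5.83 (FDR 0.00129). The ratio of mean Gdpd2 levels was 6.2 in TPM and 6.9 in CPM per 1000 bases. Without the 4 genes, the pathway lists had 8 higher and 2 lower genes in bulk RNA-seq without a filter and 0 and 0 in the fit of all 10 libraries. In Smart-seq2 they had 10 higher and 1 lower with DESeq2 and 22 and 2 in the fit of all 10.

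Leaving out 1 library gave 684 to 1048 genes higher and 199 to 401 lower in bulk RNA-seq, and 0 to 5290 higher and 0 to 2146 lower in Smart-seq2, where the counts were 5290 and 2146 without WT replicate 1 and 4089 and 2029 without WT replicate 2. The lone library is then assumed to vary like the other group. In bulk RNA-seq Ampd3 ranged from 3.35 to 3.56, Gdpd2 from 2.67 to 2.79, Thbs4 from 3.43 to 3.86 and Apoa1 from 5.52 to 7.78, where its call ended without any 1 of the WT libraries. In Smart-seq2 Ampd3 ranged from -3.84 to -0.98, Gdpd2 from -2.33 to 1.0 (reversed without WT replicate 1), Thbs4 from 4.96 to 7.94 and Apoa1 from 6.66 to 6.67, which could not be fitted without a Prmt1-dKO library. The pathway lists ranged from 2 to 7 higher and 1 to 3 lower in bulk RNA-seq and from 0 to 27 and 0 to 4 in Smart-seq2. In bulk RNA-seq they had 2 higher without WT replicate 1 or 2 and 3 without WT replicate 3, and 3 lower without Prmt1-dKO replicate 2 and 2 without replicate 3. In Smart-seq2 they had 27 higher and 3 lower without WT replicate 1, and 22 and 4 without WT replicate 2.

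With a replicate block 691 genes were higher and 259 lower in bulk RNA-seq, and 0 and 0 in Smart-seq2. Same-numbered bulk libraries correlated at 0.0825, -0.221 and -0.119 in their deviations, so they share only a number.

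Promoter peaks of Ampd3 were in 5 lists at q of at most 0.01 and in 7 when lists of a mark were cut to equal length, and those of Gdpd2 in 3 and 3. Thbs4 had 4 within 1000 bp and 3 at that q, and Apoa1 had 0 within 1000 bp and 6 within 5000 bp. The H4R3me2s peak in Prmt1-dKO was 1 gene and list, 0 within 1000 bp, 2 within 5000 bp and 0 at that q. In Smart-seq2 the 4 genes had 0 to 150 counts per library, which limits the precision of their values there.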
